A study of Bos taurus with 6 samples.

Results

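Of 9155 bovine genes measured on 6 arrays, 70 differed in opposite ways between cultures with and without transforming growth factor beta 3 (TGF-beta3) on the 2 days on which both media were sampled. At day 21, 25 of them were higher with TGF-beta3 and at day 42 lower. The other 45 were lower at day 21 and higher at day 42. The genes were chosen by these measured signals, with a log2 difference of at least 1 on each day, so their day 21 and day 42 differences describe the choice and carry no test. Symbols beginning with LOC, SLC, ITG, HSP, DNAJ, CDC, CDK or CTS were left out, which removed 1 gene, CDC42BPG.

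The cells were mesenchymal stem cells (MSCs) from bovine bone marrow, held in agarose, a gel that keeps them rounded and apart. Of 3 cultures in defined medium without TGF-beta3, the controls, 1 was taken at day 3, 1 at day 21 and 1 at day 42. A further 2 received TGF-beta3 to induce cartilage formation and were taken at days 21 and 42. The last received TGF-beta3 throughout, grew for 21 days without load and under cyclic compression for the next 21, ending at day 42. Each condition had 1 array. Nothing was replicated, and that number of arrays sets the precision. The donors, their age and any pooling are not given in the sources used here.

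TGF-beta ligands bind pairs of receptor kinases that phosphorylate SMAD proteins, and these enter the nucleus and act there with other transcription factors. Which genes they reach is known to depend on those partners and on the state of the cell. In MSCs a sustained supply of TGF-beta3 drives the deposition of type II collagen and aggrecan.

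Signal is the authors' linear intensity of a probe set, the group of probes that reads a transcript. Values under 15.14, the 40th percentile of all values, were set to it before log2 was taken, and where 1 of the 2 values lay under this floor the difference is a lower bound, written "at least". Median signals lay between 22.3 and 34.9. Hybridisation spikes are control transcripts added in fixed amounts to each array. Their median signal was 2927 on the day 42 array without TGF-beta3, 7304 on the unloaded and 5823 on the loaded array with it. TGF-beta3 and control arrays thus differed in their spikes by log2 0.30 at day 21 and 1.32 at day 42. The controls themselves changed with time, with COL2A1 at 55.5, 2739 and 3202 at days 3, 21 and 42. The 13 fat cell genes measured summed to 7009, 24905 and 29746 on the same control arrays. The arrays carried the marrow stromal marker NT5E at 379 to 1787. Stromal genes were more often lower than higher with TGF-beta3. Of 10 above the floor on 1 or both arrays of each pair, NT5E among them, 6 were at least 2-fold lower at day 21 and 0 higher. At day 42, 5 were lower and 1 higher. The higher 1 was NT5E, at 1508 with against 379 without TGF-beta3. CXCL12 read 14.1 with against 317 without TGF-beta3 at day 21, and 4.15 against 255 at day 42. CD44 read 185 against 423 and 137 against 483. The stromal markers LEPR and NGFR were under the floor on all 6 arrays, and ENG did not exceed 47.0. Of 7 endothelial genes measured, CDH5, VWF and KDR were under the floor on all 6 arrays, and PECAM1 did not exceed 20.8. Just 2 of the 7 were above the floor on 1 or both arrays of each pair. The 7 summed to 132 without and 421 with TGF-beta3 at day 21, and to 63.7 and 245 at day 42. Their part in the results was not tested. In RNA from whole constructs, fewer cells of a type and less RNA per cell cannot be told apart.

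Going opposite ways was uncommon. A total of 6748 genes exceeded the floor on 1 or both arrays of each pair. Of these 0.385% were higher and then lower by 2-fold or more, and 0.667% lower and then higher, 1.05% in all with CDC42BPG counted. By comparison 8.14% were higher by that size on both days and 8.17% lower on both. Each day alone had many more. Day 21 had 14.3% of genes higher by the size rule and 14.0% lower, day 42 had 25.5% higher and 15.7% lower. The median difference of all genes was 0.09 at day 21 and 0.23 at day 42 (log2).

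**Figure D1:**
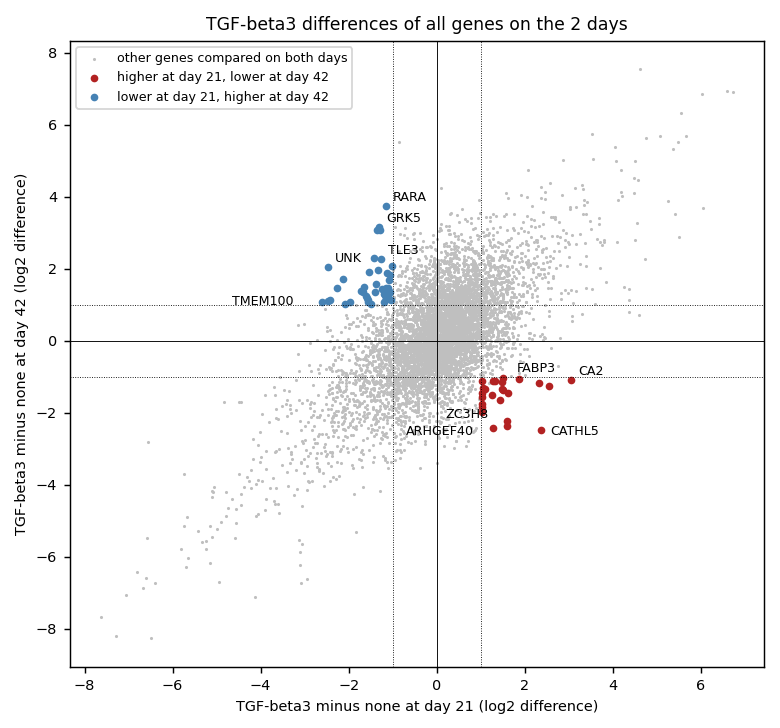
Each point is a gene, with its TGF-beta3 minus control log2 difference at day 21 on the horizontal axis and at day 42 on the vertical axis, and dotted lines at differences of 1 and -1. The cloud of 6748 genes runs from lower left to upper right, while the 25 genes higher then lower (red) and the 45 lower then higher (blue) sit in the other 2 corners, mostly close to the dotted lines.

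Most members passed the threshold narrowly. The smaller of a gene's 2 differences was under 1.25 in 45 of the 70 and at least 1.5 in 6. Just inside the threshold were BAG3 (1.02 and -1.56, log2, days 21 and 42), ENTPD5 (1.02 and -1.45), ALAD (-1.49 and 1.02) and MADD (-2.09 and 1.02). Just outside it were PHKG2 (1.69 and -0.98), NUP160 (0.96 and -1.63), PROCA1 (-1.35 and 0.999) and ZNF3 (-0.998 and 1.15). The members' median difference in size was 1.33 at day 21 and 1.36 at day 42.

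They were also dim. The median of their geometric mean signals over the 4 arrays of days 21 and 42 without loading was 46.7, against 147 for all genes compared on both days. A total of 42 members, 60%, were above the floor on all 4 of these arrays, against 83.6% of all genes compared. For the other 28, at least 1 difference is a bound. Split into 4 equal bins by mean signal, 2.31% of the dimmest genes went opposite ways, then 1.30% and 0.534%, and 0.0593% in the brightest bin, where 1 gene of 1687 did so. The share that differed the same way on both days went from 20% to 10.7% over the same bins.

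**Figure D2:**
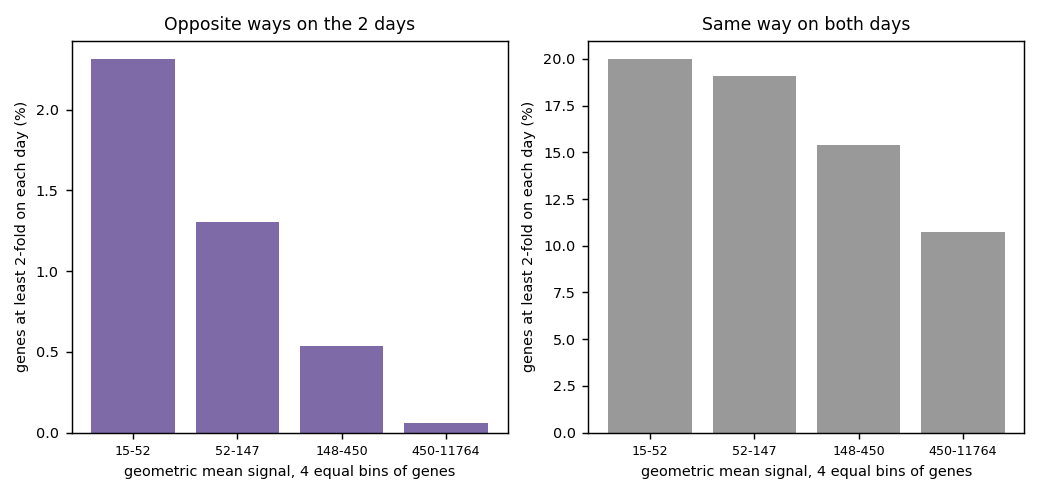
Bars give the percentage of genes that were at least 2-fold different on each day, opposite ways on the left and the same way on the right, for 4 equal bins of the 6748 genes ordered by geometric mean signal. The opposite share goes from 2.31% in the dimmest bin to 0.0593% in the brightest, and the same-way share from 20% to 10.7%. The 2 vertical axes differ in scale.

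None of the members belonged to the 18 pathway and cell type lists used, of whose genes 229 were compared on both days. With 1.05% of all genes opposite, 0 of 229 is near the background and is no result about the members. Cartilage matrix genes (aggrecan, type II collagen, COMP and others) lay outside, with 9 of 10 higher by the size rule at day 21 and 10 of 10 at day 42. So did fat cell genes, with 9 of 11 lower at day 21 and 11 of 11 lower at day 42. Ribosomal protein genes, whose products build the ribosome, had 2 of 64 higher at day 21 but 53 of 64 at day 42, on the pair of arrays whose spikes differed by 1.32. Their median difference went from 0.48 to 1.24, and none of them was lower at day 21 and higher at day 42 by the size rule.

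The members were sorted by role after they were known. The first group, 15 regulators of chromatin and transcription, held 3 genes higher then lower and 12 lower then higher. EZH1, a histone H3 lysine methyltransferase of the Polycomb system, read 50.7, 58.3 and 18.5 without TGF-beta3 at days 3, 21 and 42, 20.2 and 69.2 with it at days 21 and 42, and 68.7 on the loaded array. It was 2.89-fold lower and then 3.73-fold higher, and both TGF-beta3 arrays of day 42 had nearly the same signal. IRF2, an interferon regulatory factor that can repress interferon-induced genes, read 58.9, 50.2 and 25.6 without TGF-beta3, 20.4 and 217 with it, and 64.6 on the loaded array. That made it 2.46-fold lower and then 8.48-fold higher, but the loaded array stood much closer to the controls than the unloaded one did.

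TLE3, a Groucho corepressor that binds transcription factors of the Wnt pathway among others, followed the same course, 2.40-fold lower and then 4.78-fold higher. Its signal was 96.6, 95.5 and 79.0 without TGF-beta3, 39.7 and 378 with it and 66.9 on the loaded array. The 378 thus stood alone, since the other 5 arrays lay between 39.7 and 96.6. SGF29, a subunit of histone acetyltransferase complexes that reads methylated histone H3, read 54.7, 109 and 74.8 without TGF-beta3, 46.4 and 202 with it and 130.2 under loading. ZNF143, a zinc finger factor of promoters and chromatin loops, read 50.3, 77.3 and 49.9 without TGF-beta3, 33.5 and 122 with it and 49.6 under loading. Both were highest on the unloaded day 42 array with TGF-beta3 and lowest on the day 21 array with it.

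RARA, the retinoic acid receptor alpha, read 52.1, 33.8 and 9.66 without TGF-beta3, 13.3 and 200.4 with it at days 21 and 42, and 159.7 on the loaded array. With the low value under the floor each time, it was first at least 2.23-fold lower and then at least 13.2-fold higher. SETDB1, which methylates histone H3 lysine 9, read 71.6 against 26.8 at day 21, and 1.64 without against 74.0 with TGF-beta3 at day 42 (at least 4.89-fold higher). IRX3, an Iroquois homeobox factor, read 85.3 against 38.7 at day 21 and 43.2 against 99.6 at day 42. CBX6 (a Polycomb protein), NRF1 (a factor for nuclear genes of mitochondria), HOXC13 (a homeobox factor of hair and nail) and USP21 (a deubiquitinase) followed the same direction with signals under 75 on every array.

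In the opposite direction went ZNF800, a zinc finger protein, L3MBTL2, a Polycomb-group protein that compacts chromatin, and PAX6, the eye and brain transcription factor. ZNF800 read 130.3, 76.7 and 65.4 without TGF-beta3, 156 and 19.4 with it and 32.3 under loading, so both day 42 arrays with TGF-beta3 lay under all the others. L3MBTL2 was at least 3.04-fold higher and then at least 5.14-fold lower, at signals no higher than 77.9. PAX6 was 2.85-fold higher, at 69.6 against 24.5, and then at least 2.07-fold lower.

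A second group held 11 genes that handle DNA and RNA, 5 higher then lower and 6 lower then higher. ZC3H8, a nuclear zinc finger protein that takes part in small nuclear RNA transcription, read 147, 170.3 and 183 without TGF-beta3 at days 3, 21 and 42. With TGF-beta3 it read 516 at day 21, 38.8 at day 42 and 204 on the loaded array. It was 3.03-fold higher and then 4.73-fold lower, while the 3 control arrays and the loaded array stayed between 147 and 204. TFB2M, a transcription factor of the mitochondrial genome, read 118, 117 and 177 without TGF-beta3, 238 and 44.7 with it and 85.3 under loading. MPV17L2, a protein of mitochondrial ribosome assembly, read 80.1, 102 and 109 without TGF-beta3, 218 and 42.6 with it and 103 under loading.

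ESF1, a nucleolar protein of ribosomal RNA processing, was 2.05-fold higher at day 21 (365 against 178) and 2.16-fold lower at day 42 (122 against 263). Its loaded array also read 122, and day 3 read 174. RHNO1, which helps activate the ATR kinase after DNA damage, was 2.80-fold higher and 2.52-fold lower, with 71.6 and 19.8 on the arrays with TGF-beta3, 49.0, 25.5 and 49.8 on the controls and 52.8 under loading. These 5 genes were all highest of the 6 arrays at day 21 with TGF-beta3.

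Among those lower and then higher, POLA1, the catalytic subunit of DNA polymerase alpha, read 67.7, 43.4 and 18.4 without TGF-beta3, 19.9 and 67.5 with it and 39.3 on the loaded array. RAD9B, a paralogue of the checkpoint clamp protein RAD9, read 75.7 against 37.2 at day 21 and 18.8 against 78.9 at day 42. ZFP36, tristetraprolin, which speeds the decay of inflammatory messenger RNAs, was 2.95-fold lower at day 21 (30.0 against 88.6) and 2.11-fold higher at day 42 (43.9 against 20.8). Its loaded array stood at 229.7, above the other 5. The splicing proteins PRPF31 and XAB2 were first 2.09-fold and at least 2.52-fold lower, then 2.55-fold and 3.92-fold higher. UNK, an RNA-binding zinc finger protein that represses translation, read 84.5 against 5.49 at day 21 (at least 5.58-fold lower) and 20.1 against 82.8 at day 42 (4.12-fold higher).

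**Figure D3:**
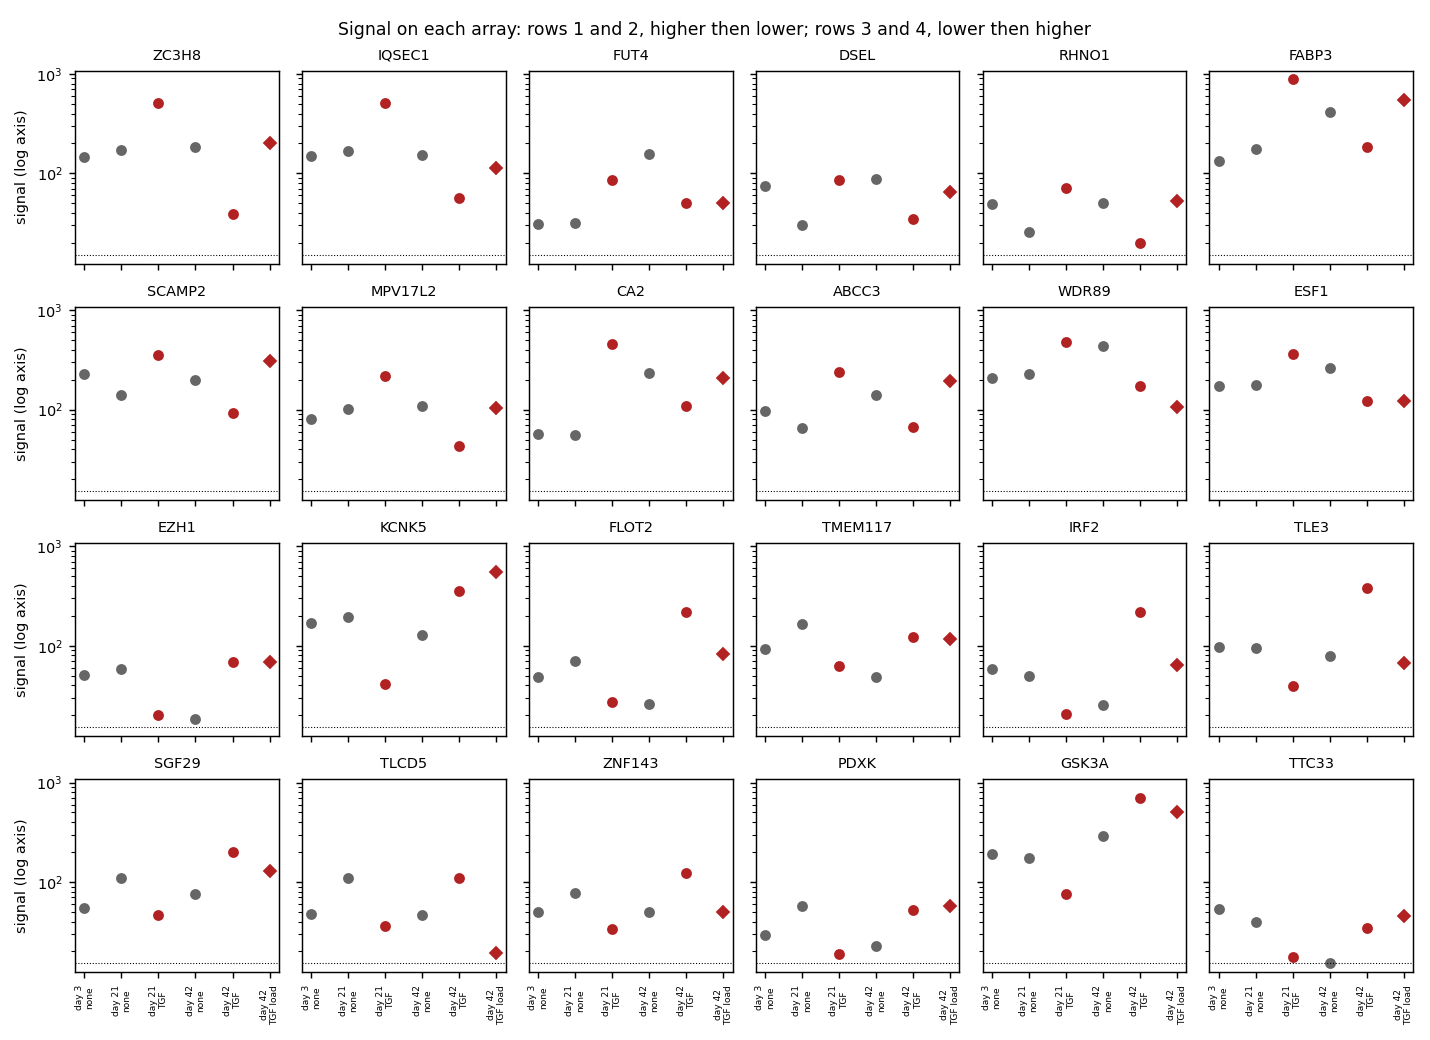
Each panel gives the signal of a gene on a log axis for the 6 arrays, with controls in grey, TGF-beta3 in red, the loaded array as a diamond and the floor of 15.14 dotted. The upper 2 rows hold 12 genes higher then lower, among them ZC3H8 (516 and 38.8) and FABP3 (881 and 185), and the lower 2 rows 12 genes lower then higher, among them KCNK5 (40.9 and 353) and GSK3A (76.1 and 703).

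Signalling, trafficking and membrane proteins formed the largest group, with 16 genes, 6 higher then lower and 10 lower then higher. KCNK5, an acid-sensitive potassium channel of the background (leak) type, read 170.1, 195 and 129 without TGF-beta3 at days 3, 21 and 42. With TGF-beta3 it read 40.9 at day 21, 353 at day 42 and 555 on the loaded array, which put both day 42 arrays above all controls and the day 21 array under them. It was 4.78-fold lower and then 2.73-fold higher. GSK3A, a glycogen synthase kinase that also phosphorylates beta-catenin, read 193, 173 and 291 without TGF-beta3, 76.1 and 703 with it and 504 under loading. Its differences were 2.27-fold and 2.42-fold, and its controls went up from day 21 to day 42 by log2 0.75.

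FLOT2, a scaffold protein of membrane rafts, read 48.2, 69.6 and 25.7 without TGF-beta3, 27.3 and 218 with it and 83.2 under loading. GRK5, a kinase that desensitises G protein-coupled receptors, read 38.3, 67.7 and 3.70 without TGF-beta3, 27.4 and 135 with it and 107 under loading, and was 2.47-fold lower and then at least 8.92-fold higher. PIK3IP1, which inhibits phosphoinositide 3-kinase, was 5.39-fold lower at day 21 (26.2 against 141) and 2.21-fold higher at day 42 (187 against 84.6), with 64.4 under loading. RAB3D, a small GTPase of regulated secretion, was 5.58-fold lower (19.5 against 109) and 2.16-fold higher (126 against 58.3). TMEM100, which lies downstream of BMP signalling in the vessels of mice, read 184, 92.2 and 74.6 without TGF-beta3, 7.55 and 158 with it and 64.9 under loading.

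The other genes of this group that were lower and then higher had a low value near or under the floor. They were MADD (a Rab regulator, 4.26-fold lower and 2.03-fold higher), CORO2A (an actin-binding coronin, at least 4.36-fold and 3.26-fold) and IL20RB (a receptor chain for interleukins of the IL-20 family, 3.17-fold and at least 2.56-fold).

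Among those higher and then lower, IQSEC1, an exchange factor for the small GTPase ARF6, read 148, 168 and 153 without TGF-beta3, 512 and 56.2 with it and 113 under loading. Its controls hardly moved, and the day 21 and day 42 arrays with TGF-beta3 lay far above and under them. SCAMP2, a carrier protein of secretory membranes, read 229, 141 and 199 without TGF-beta3, 355 and 92.2 with it and 307 under loading. ABCC3, an exporter of organic anions and bile salts, read 96.0, 65.6 and 140.2 without TGF-beta3, 240.5 and 66.6 with it and 192 under loading. For both, the loaded array was above the day 42 control and the unloaded array under it. ARHGEF40 read 171 against 70.9 at day 21 and 2.81 against 81.1 at day 42 (at least 5.36-fold lower), with 106 under loading. STAC, an adaptor of voltage-gated calcium channels, was 2.38-fold higher and then at least 2.82-fold lower, and the adenylyl cyclase ADCY7 at least 2.05-fold higher and at least 3.56-fold lower.

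Enzymes and a lipid carrier made up 13 members, 7 higher then lower and 6 lower then higher. CA2, carbonic anhydrase II, which interconverts carbon dioxide and bicarbonate, had the largest day 21 difference among members above the floor on both day 21 arrays. It read 57.4, 55.9 and 232 without TGF-beta3 at days 3, 21 and 42, 459.8 and 109 with it and 208 on the loaded array. It was 8.23-fold higher with TGF-beta3, later 2.13-fold lower. Its controls went up by log2 2.05 between those days and its TGF-beta3 arrays went down by 2.08, so the crossing came from both media.

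FABP3, the fatty acid binding protein of heart and muscle, read 134, 177 and 415 without TGF-beta3, 881 and 185 with it and 543 under loading. It was 4.99-fold higher and then 2.24-fold lower. In contrast, the 11 fat cell genes compared had median log2 differences of -5.10 and -4.26, lower on both days. FUT4, which adds fucose to make the Lewis x sugar, read 30.7, 31.7 and 156 without TGF-beta3, 86.3 and 50.3 with it and 50.7 under loading. Its control at day 42 was the highest of the 6 arrays. DSEL, which converts glucuronic to iduronic acid in chondroitin and dermatan sulphate chains, read 75.3, 30.3 and 88.7 without TGF-beta3, 85.5 and 34.6 with it and 65.6 under loading. It was 2.82-fold higher and 2.57-fold lower, but the day 21 control was the lowest array, under that of day 3.

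B4GALT5, a galactosyltransferase that makes lactosylceramide, ENTPD5, a nucleotidase that aids protein folding in the endoplasmic reticulum, and NAA60, an acetyltransferase of the Golgi, were the others in this direction. Their signals did not exceed 89.1. Of the 6 enzymes lower and then higher, PDXK, which makes active vitamin B6, read 29.3, 56.8 and 22.9 without TGF-beta3, 19.0 and 52.1 with it and 57.7 under loading. ALAD, the second enzyme of haem synthesis, was 2.81-fold lower (40.1 against 113) and 2.02-fold higher (129 against 63.7). OPLAH, which returns oxoproline to glutamate in the glutathione cycle, read 41.7 with TGF-beta3 at day 42 but 146 on the loaded array, and 18.9 at day 3. NAPRT, an enzyme of NAD synthesis, DDAH2, of the family that breaks down methylated arginines, and TMEM86A, which hydrolyses lysoplasmalogen, were at least 2.21-fold, 2.14-fold and 3.94-fold lower at day 21, with the TGF-beta3 array under the floor. At day 42 they were 2.77-fold, 2.76-fold and 2.09-fold higher.

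A further 4 members encode secreted proteins. FIBIN, named for its part in the pectoral fin bud of zebrafish, read 1029, 1183 and 989.8 without TGF-beta3 at days 3, 21 and 42, 549 and 2283 with it and 2023 on the loaded array. It was 2.16-fold lower and then 2.31-fold higher, and the 3 controls lay within 989.8 to 1183. SERPING1, the C1 inhibitor of complement and contact activation, read 204, 116 and 102 without TGF-beta3, 54.3 and 229 with it and 140.0 under loading. PGF, placental growth factor, a ligand of the VEGF receptor FLT1, was 2.81-fold higher (64.0 against 22.8) and then at least 2.20-fold lower (2.28 against 33.3). CATHL5, a cattle antimicrobial cathelicidin stored in neutrophils, read 0.665, 8.30 and 83.9 without TGF-beta3, 78.1 and 7.54 with it and 97.2 under loading, so it was under the floor on 3 arrays and between 78.1 and 97.2 on the others. The 10 macrophage and blood cell genes measured, of which ITGAM was under the floor on all 6 arrays, summed to 507 and 621 without and 81.4 and 164 with TGF-beta3 at days 21 and 42. Of 9 compared, 7 were lower with it at day 21 and 4 at day 42, and none higher. The part of such cells in the CATHL5 signal was not tested.

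The remaining 11 members had other or less certain roles. BAG3, a partner of the chaperone HSP70 in selective autophagy, read 281, 332 and 423 without TGF-beta3, 673 and 143 with it and 342 under loading. WDR89 read 206, 229 and 436 without TGF-beta3, 475 and 174 with it and 106 under loading. Both day 42 arrays with TGF-beta3 were under every other array in WDR89, whereas the loaded BAG3 array lay among the controls. The other 9 were lower and then higher. CEP95, a centrosomal protein, read 172 against 83.4 at day 21 and 88.2 against 194 at day 42. TMEM117, a membrane protein, read 92.2, 166 and 48.9 without TGF-beta3, 62.9 and 124 with it and 116 under loading. TLCD5, a multipass membrane protein, read 47.7, 110.5 and 46.5 without TGF-beta3, 36.1 and 109 with it and 19.3 under loading, the lowest of its 6 arrays. TTC33 read 54.1, 39.2 and 15.2 without TGF-beta3, 17.5 and 34.5 with it and 45.4 under loading, with its low values just above the floor. PIERCE2, a protein of ciliary microtubules, URGCP, GPALPP1, ZZEF1 and TMEM131L had differences from 2.07-fold to 3.57-fold in size, several of them bounds.

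The level with TGF-beta3 usually moved most between the days. From day 21 to day 42 it differed by at least 2-fold in 65 of the 70, where 30.7% of all genes did so, and the level without it in 31, where 9.32% did so. These arrays chose the members, so nothing is read from the excess. In 39 members only the TGF-beta3 level moved at least 2-fold, in 5 only the control level, and in 26 both did, always in opposite directions. Among genes higher then lower the median log2 change between the days was -2.08 with TGF-beta3 and 0.60 without, and among genes lower then higher 1.84 and -0.98. In 14 members the control level moved at least as far as the TGF-beta3 level. They were CATHL5, L3MBTL2, FUT4, DSEL and ADCY7 among genes higher then lower, and NRF1, SETDB1, CBX6, IL20RB, TMEM117, TTC33, URGCP, ZFP36 and RAD9B among those lower then higher.

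**Figure D4:**
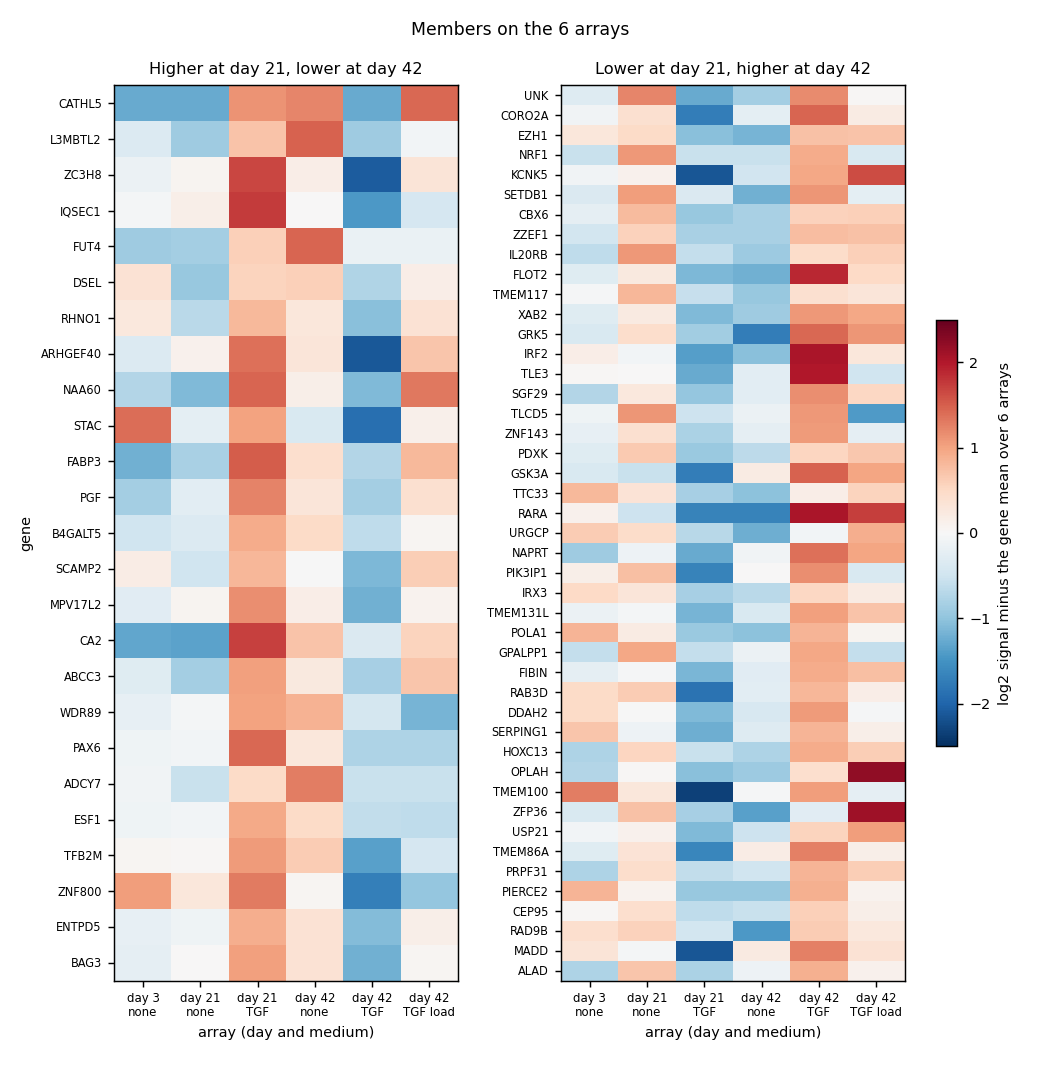
Rows are the 25 genes higher then lower (left) and the 45 lower then higher (right), columns are the 6 arrays, and colour is the log2 signal minus the gene's mean over the arrays, red above and blue under it. Red at day 21 and blue at day 42 with TGF-beta3 on the left, and the reverse on the right, restate the choice, whereas the first and last columns (day 3 and loaded) show arrays whose values the threshold did not use.

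The loaded construct was a further day 42 culture with TGF-beta3. Against the day 42 control, which it shares with the unloaded comparison, the 25 genes higher then lower had a median log2 difference of -0.21, from -2.04 to 1.17, and the 45 lower then higher one of 1.08, from -1.26 to 3.46. Spikes differed by log2 0.99 on this pair of arrays, and its median over all genes is not given here. The day 42 control also helped choose the members, so nothing is read from these medians. In that comparison ZC3H8 stood at log2 0.15 on the loaded and -2.24 on the unloaded array. FABP3 stood at 0.39 and -1.16, SCAMP2 at 0.63 and -1.11, ABCC3 at 0.45 and -1.07 and BAG3 at -0.31 and -1.56. ESF1 stood at -1.11 on both, FUT4 at -1.62 and -1.63 and WDR89 at -2.04 and -1.32. Of the genes lower then higher, RARA stood at 3.40 and 3.73, GRK5 at 2.81 and 3.16, KCNK5 at 2.10 and 1.45, EZH1 at 1.89 and 1.90 and FIBIN at 1.03 and 1.21. TLE3 stood at -0.24 and 2.26, ZNF143 at -0.01 and 1.29, PIK3IP1 at -0.39 and 1.14 and TLCD5 at -1.26 and 1.23. So for ZC3H8, FABP3, SCAMP2, ABCC3, TLE3, ZNF143, PIK3IP1 and TLCD5 the sign on the loaded array was not that of the unloaded one. Among genes higher then lower this also held for NAA60 (1.17 on the loaded array), STAC (0.50), ARHGEF40 (0.39), CATHL5 (0.21), PGF (0.11) and RHNO1 (0.08). Among genes lower then higher it held for GPALPP1 (-0.45), TMEM100 (-0.20) and TMEM86A (-0.04). All other members kept the sign. Loading and culture differ together here, and which of them goes with these values cannot be told apart.

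Neither the loaded nor the day 3 array entered the threshold, so their difference was also set out, although both counted in the choice of each gene's brightest probe set. Of 69 members that exceeded the floor on either array, 21 (30.4%) were higher in the loaded construct by the size rule and 4 (5.80%) lower. Of all 7462 genes so compared, 22.3% were higher and 11.2% lower. The median log2 difference was 0.35 for the members and 0.26 for all genes, and the spikes differed by 0.64. Genes higher then lower had 7 of 25 higher and 2 lower (CA2, FABP3, NAA60 and CATHL5 among the former, STAC and ZNF800 the latter). Genes lower then higher had 14 of 44 higher and 2 lower, with OPLAH at 2.95, ZFP36 at 2.49 and KCNK5 at 1.71, and TMEM100 at -1.51 and TLCD5 at -1.30. With the spikes set level, which lowers this difference by log2 0.64 for every gene above the floor on both arrays, 8 members were higher and 14 lower. The shares of all genes under that scaling are not given here, so these counts are no result about the members.

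Other probe sets for the same genes often read differently. A total of 28 members had 38 further probe sets, of which 20, for 16 genes, were above the floor on 1 or both arrays of each pair. Of these, 9 had signs that matched the member on both days and 11 did not. Only the further IRF2 probe set passed the size rule on both days, at -1.90 and 3.42 (a bound at day 21) beside -1.30 and 3.08. Those of ZC3H8 (1.25 and -0.80), TFB2M (0.63 and -0.83), SETDB1 (-0.73 and 1.26) and MADD (-1.18 and 0.63) had matching signs. Their sizes were smaller, except that the day 42 values of ZC3H8 and SETDB1 are bounds, whose true size is not known. For RARA (-0.35 and 2.28, a bound at day 42) the day 42 difference was large and that of day 21 small. SERPING1 stood at -0.22 and 2.38, both of them bounds. Those of IQSEC1 were 0.62 and 0.07, -0.44 and -0.22 (a bound at day 42), and 0.62 and 1.82, none of them with the member's signs. Those of FLOT2 were 0.56 (a bound) and 3.15, 0.10 and 0.65 (both bounds), and -0.16 and 2.73 (a bound at day 42), and only the last matched in sign. The compared ones of B4GALT5 (0.43, a bound, and 1.44), PAX6 (-0.53 and 0.75, a bound at day 42) and ENTPD5 (-0.52 and -0.29, a bound at day 42) did not match. Nor did those of ZZEF1 (0.97 and -0.55, both bounds), POLA1 (0.31, a bound, and -0.28) and CEP95 (0.03 and -0.20). These probe sets read the same RNA on the same arrays and are no replicates.

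How the arrays were scaled decided which direction had more genes. As deposited, 25 genes were higher then lower and 45 the reverse. Quantile normalization gave 43 and 26, centring each array on its median 72 and 14, and centring on the spikes 98 and 14. Centring on the median lowers day 42 differences above the floor by log2 0.59, and centring on the spikes by 1.32. Of the 70 members, 49 kept differences of at least 1 with their signs on both days under quantile normalization, 39 under median centring and 20 under spike centring. The same 20 genes passed under all 3 scalings. They were 15 of the 25 genes higher then lower, among them ZC3H8, IQSEC1, FUT4, DSEL, RHNO1, FABP3, SCAMP2, CA2 and ABCC3, and 5 of the 45 lower then higher, SETDB1, FLOT2, GRK5, IRF2 and RARA. With the spikes level, FIBIN at day 42 went from 1.21 to -0.11 and GSK3A from 1.27 to -0.046. With a floor at a signal of 100, 6 members passed, namely BAG3, CA2, ESF1, FABP3, FIBIN and WDR89.

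**Figure D5:**
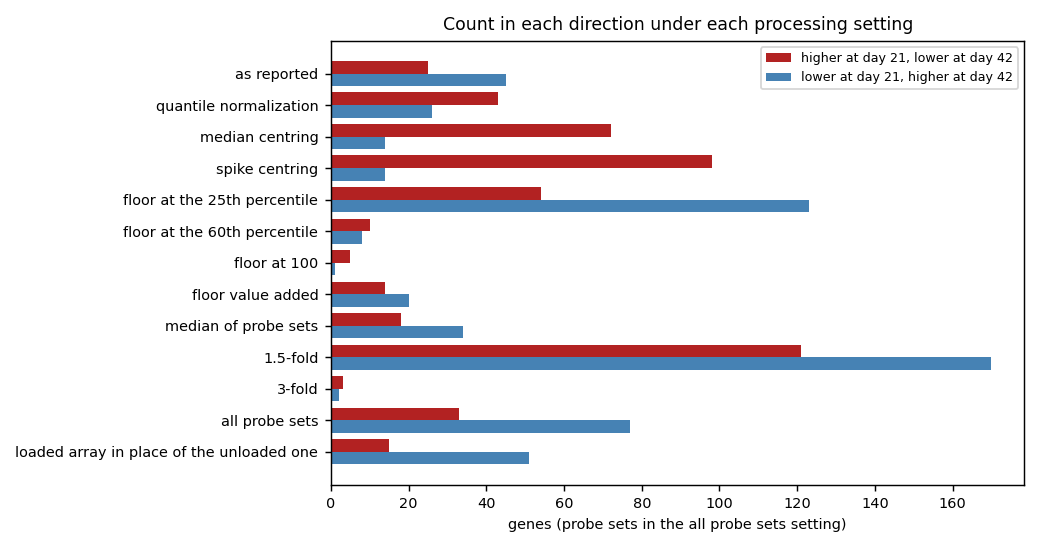
Bars count the genes higher then lower (red) and lower then higher (blue) under each way of processing. The blue bar is longer as reported (45 against 25) and the red bar is longer under quantile normalization (43 against 26), median centring (72 against 14) and spike centring (98 against 14), and both are short with a floor at 100 or a 3-fold threshold.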

How the data were processed

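Total RNA from 6 agarose cultures was hybridised to Affymetrix bovine arrays, 1 per condition. Each deposited value is a signal intensity on a linear scale for a probe set. Per the submitters' processing notes the authors made it with MAS5, version not given in these sources. After trimming 2% at each end the mean signal was 150.0 to 150.1 on every array, as a global scaling would leave it. That scaling was kept. Of 24128 probe sets, 112 controls were left out. Names came from the platform annotation: 13292 probe sets had 1 gene, 86 several and 10638 none here, and all 70 members' Entrez identifiers gave the same symbol. Signals under 15.14 were set to it, log2 was taken, and the probe set with the highest mean over the 6 arrays stood for its gene. Members, gene lists, role groups and tests were chosen with earlier results of these data known. Members with signals on all 6 arrays are the 12 per direction with the largest smaller difference, those above the floor on 4 arrays first. Other members, chosen after their values were seen, are added. With 1 array per condition no p-value was computed. Alternatives were other scalings, floors, thresholds and probe set choices, and the loaded array. The selection step was tested on simulated data. No nucleotide or protein sequence was used here. Python 3.11.15, numpy 2.4.6, pandas 2.3.3, scipy 1.17.1 and matplotlib 3.10.9 were used.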

Additional observations from a re-analysis of the deposited data

How the results depend on the processing

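The set changed with floor, threshold and scaling, and the cause of each shift was not tested. Dim signal leaves at least 1 difference a bound in 28 of the 70. No paired analysis was possible because each condition had 1 array. Counts are given in all, then higher then lower, then lower then higher. As reported they were 70, 25 and 45. Quantile normalization gave 43 and 26, median centring 72 and 14, and spike centring 112, 98 and 14. A floor at the 25th percentile gave 177, 54 and 123, at the 60th percentile 18, 10 and 8, and at a signal of 100 6, 5 and 1. Adding the floor value gave 34, 14 and 20, a 1.5-fold threshold 291, 121 and 170, and a 3-fold threshold 5, 3 and 2. Counting all probe sets gave 110 in all and 77 lower then higher. Taking the loaded for the unloaded array, with the other 3 shared, gave 66, 15 and 51. Of the 70 members, 39 kept both differences under median centring, 20 under spike centring, 18 and 6 with the floor at the 60th percentile or a signal of 100, 27 with the floor added and 45 with the median of probe sets. In the loaded array against day 3, 21 members were higher and 4 lower as reported. Median centring gave 13 and 7 and spike centring 8 and 14. With the 60th percentile floor 10 were higher, and with the floor at 100, 5 were higher and 0 lower. The shares of all genes under these other settings are not given, so nothing is read from those counts about the members. Signs turned under spike centring at day 42 for TLCD5 (-0.093), ZNF143 (-0.031), PDXK (-0.14), GSK3A (-0.046), TTC33 (-0.13), URGCP (-0.16), PIK3IP1 (-0.18), IRX3 (-0.11), GPALPP1 (-0.20), FIBIN (-0.11), RAB3D (-0.21), SERPING1 (-0.15), TMEM100 (-0.24), ZFP36 (-0.24), USP21 (-0.25), TMEM86A (-0.26), CEP95 (-0.18), MADD (-0.30) and ALAD (-0.30), and for ZZEF1 at both days (0.85 and -0.99), whose brightest probe set changed. With the median of probe sets they turned for IQSEC1 (0.70) and B4GALT5 (0.16) at day 42, PAX6 at both days (-0.26 and 0.37), CORO2A at day 42 (-0.74) and FLOT2 at day 21 (0.20).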
